A study of Homo sapiens with 32 samples.

Results

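IGF2 and 9 further genes of insulin-like growth factor (IGF) signalling were followed in RH4 cells, a human alveolar rhabdomyosarcoma line. The 10 genes were picked by symbol, from the ligand to the adaptors, with earlier results of these data known. These make up 10 of the 18980 coding genes listed for each library. They are IGF2, IGF1R, IGF2R, INSR, IRS1, IRS2, IGFBP2, IGFBP3, IGFBP4 and IGFBP5. The study asked how compounds that inhibit or degrade the acetyltransferases CBP and p300 change the RNA of these cells. Bulk RNA-seq covered 16 treated libraries, in which JQAD, IHK-44, dCBP and A485 were each given at 1 uM and at 100 nM, for 2 h and for 6 h. Another 4 libraries were controls, with DMSO (the solvent) at 2 h and 6 h and a condition labelled NT, not spelled out in the labels, at 2 h and 6 h. A485 is known as an inhibitor of the catalytic domain of both enzymes, and the labels do not say which of the other compounds inhibit and which degrade. No genotype, allele or other agent is given for any group, and every library came from the same line.

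The design has 1 library per condition, so no single value has a replicate check. Tests between a compound and the controls used its 4 libraries, at 2 doses and 2 times, in place of replicates. The spread of a gene was estimated from all 20 libraries together. It therefore contains differences between doses and times of every compound, and not only of the compound tested. The libraries held 13466631 to 16799327 counts over coding genes. Levels are given as CPM, counts scaled by the library's total over coding genes, or as FPKM, which also divides by length, where genes are set side by side. In bulk RNA, a lower level in all cells and a loss in some of them cannot be told apart. All but 1 of 8 muscle-lineage and rhabdomyosarcoma markers were present in the controls (DES, a muscle filament protein, at 392 to 439 CPM), and MYF5 was at 0 to 0.0625 CPM. The summed level of these markers was 2096 to 2298 CPM in controls, 1202 to 2041 CPM with A485, 994 to 1760 CPM with dCBP, 933 to 1757 CPM with IHK-44 and 2231 to 2621 CPM with JQAD. Of the 7 tested, edgeR called 6 lower for IHK-44 and for dCBP (18.3% and 19.6% of all genes), 1 for A485 (2.84%) and 0 for JQAD (0.0%), and their part in the results on the members was not tested. Markers of blood, endothelium, epithelium, liver and glia (10 genes) summed to 0.934 to 2.66 CPM in controls and to at most 3.50 CPM elsewhere, with EPCAM at 0 throughout.

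IGF2 and its relative IGF1 are secreted growth factors that bind the receptor kinase IGF1R, and IGF2 also binds a form of the insulin receptor INSR. The activated receptor phosphorylates the adaptors IRS1 and IRS2, which recruit PI3K and so switch on AKT and mTOR. IGF2R takes IGF2 into lysosomes without signalling through a kinase, and the IGFBP proteins hold IGFs outside the cell. IGF2 is an imprinted gene that is commonly overexpressed in rhabdomyosarcoma.

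IRS1 showed the widest relative range among the 9 members that could be tested. Its level was 599.8 to 733 CPM in the 4 control libraries and 16.96 to 47.4 CPM after 6 h with dCBP or IHK-44. IRS2 moved the other way with these compounds, from 2.12 to 4.50 CPM in controls to 5.54 to 9.21 CPM with IHK-44. IGFBP3, IGFBP5 and, at 6 h, IGF1R were also lower with dCBP and IHK-44, while IGF2 was between 6077 and 8059 CPM in all 20 libraries. No member passed the test with JQAD.

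**Figure D1:**
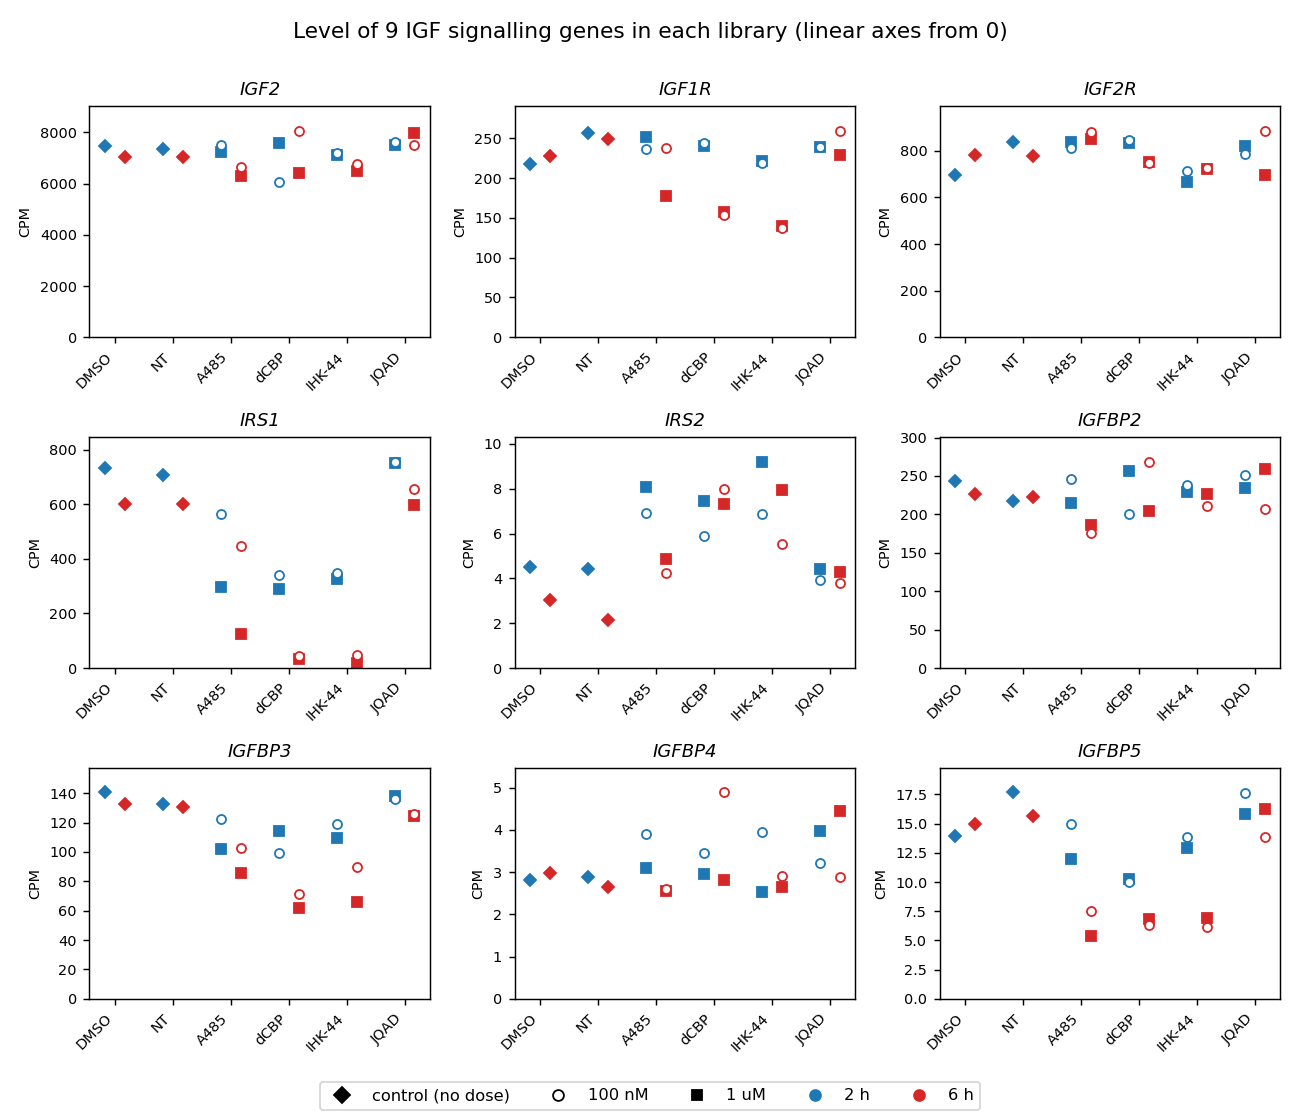
Level of 9 members in each of the 20 libraries, in CPM on linear axes from 0, by compound (x axis), with blue for 2 h, red for 6 h, squares for 1 uM, open circles for 100 nM and diamonds for controls. Each point is 1 library. The red points of IRS1 with dCBP and IHK-44 lie between 16.96 and 47.4 CPM, under the control range of 599.8 to 733 CPM, and INSR, at 0 to 0.361 CPM, is left out.

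The title of the series concerns the density of CpG islands, stretches rich in the base pair CG that lie at many promoters. The promoters of the 5 members that passed the test with both dCBP and IHK-44 are therefore printed here, chosen after their values were known. Sequences are from RefSeq (GRCh38.p14), and 9 of the 10 members matched an entry (not IGF2). Each line gives the 250 bases before the annotated start, 5' to 3' on the gene's strand, in lower case with each CG in capitals. IRS1 lies at chr2:226799821-226800070 (minus strand), IRS2 at chr13:109786584-109786833 (minus), IGF1R at chr15:98648289-98648538 (plus), IGFBP3 at chr7:45921273-45921522 (minus) and IGFBP5 at chr2:216695550-216695799 (minus).
IRS1: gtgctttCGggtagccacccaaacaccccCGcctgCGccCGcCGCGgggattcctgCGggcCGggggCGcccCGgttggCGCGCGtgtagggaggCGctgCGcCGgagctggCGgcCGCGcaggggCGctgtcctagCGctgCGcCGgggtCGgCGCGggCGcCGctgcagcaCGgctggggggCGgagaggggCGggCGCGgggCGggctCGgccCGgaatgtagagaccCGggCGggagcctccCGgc
IRS2: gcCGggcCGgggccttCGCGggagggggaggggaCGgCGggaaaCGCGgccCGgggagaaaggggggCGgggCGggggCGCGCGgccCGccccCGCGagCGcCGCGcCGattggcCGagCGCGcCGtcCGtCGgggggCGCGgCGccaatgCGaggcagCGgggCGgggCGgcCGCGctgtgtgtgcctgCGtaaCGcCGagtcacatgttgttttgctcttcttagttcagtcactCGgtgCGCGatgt
IGF1R: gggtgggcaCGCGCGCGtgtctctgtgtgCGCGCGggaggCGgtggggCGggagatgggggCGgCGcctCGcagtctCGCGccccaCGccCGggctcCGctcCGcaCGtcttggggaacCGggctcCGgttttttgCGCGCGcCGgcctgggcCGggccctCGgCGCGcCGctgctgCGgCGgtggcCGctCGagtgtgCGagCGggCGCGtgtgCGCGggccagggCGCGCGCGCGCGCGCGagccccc
IGFBP3: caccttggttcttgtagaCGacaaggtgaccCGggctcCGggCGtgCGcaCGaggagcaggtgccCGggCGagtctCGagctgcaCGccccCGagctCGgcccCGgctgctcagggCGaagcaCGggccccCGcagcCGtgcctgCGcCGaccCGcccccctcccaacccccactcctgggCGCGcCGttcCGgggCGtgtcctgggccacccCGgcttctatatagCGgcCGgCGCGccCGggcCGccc
IGFBP5: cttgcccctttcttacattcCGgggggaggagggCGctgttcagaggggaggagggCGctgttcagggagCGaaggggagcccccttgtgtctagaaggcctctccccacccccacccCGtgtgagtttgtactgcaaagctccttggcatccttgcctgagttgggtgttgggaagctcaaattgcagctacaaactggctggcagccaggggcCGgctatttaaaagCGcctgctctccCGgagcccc
The IRS1 promoter holds 39 CG pairs and that of IRS2 holds 42, against a median of 11 and quartiles of 3 and 23 over the 35116 promoters of the same table. IGF1R has 48, IGFBP3 has 32 and IGFBP5 has 8. IRS1 and IRS2, which differed in direction, both lie above the upper quartile. IGFBP5, which was lower with the same compounds, lies below the median. The 35116 promoters were not limited to genes expressed in these cells, and a link of CG pairs with direction was not tested. Among the other members, IGF2R has 33 pairs, INSR 28, IGFBP4 24, and the 3 annotated starts of IGFBP2 have 7, 22 and 4. IGF2R is the member whose window holds the motif CACGTG, which reads alike on both strands, and it holds it 3 times. At least 1 copy occurs in 6.34% of all the promoters and 3 or more occur in 0.0797%. TATAAA, searched on both strands, was found for IGFBP4 and in 10.7% of all the promoters. These matches describe letters only, and no data on binding or methylation were used.

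**Figure D2:**
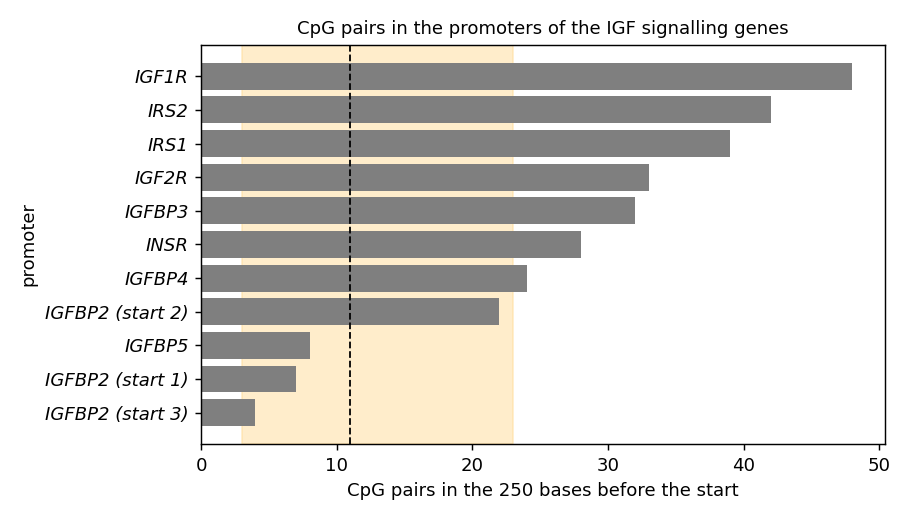
Number of CG pairs (x axis) in the 250 bases before each annotated start of the members in RefSeq (y axis). The shaded band runs from the lower to the upper quartile of all promoters (3 to 23) and the dashed line is their median of 11; IGF1R is highest with 48 and the third start of IGFBP2 lowest with 4.

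IGF2, the ligand, was among the most abundant coding RNAs of these cells. By FPKM it ranked 14 to 17 among coding genes in the 4 control libraries, at 1434 to 1540 FPKM. The DMSO libraries were at 7466 CPM (2 h) and 7019 CPM (6 h), and the NT libraries at 7351 and 7043 CPM. With dCBP the 4 libraries ran from 6077 CPM (100 nM, 2 h) to 8059 CPM (100 nM, 6 h), so that the lowest and the highest of all 20 libraries came from 1 compound and dose. With IHK-44 the range was 6483 to 7186 CPM, with A485 6297 to 7498 CPM and with JQAD 7496 to 7958 CPM. The JQAD libraries did not overlap the controls, which held for 0.37% of 12174 genes in the higher direction, but the fitted change of 0.09 (SE 0.08) did not pass edgeR's quasi-likelihood test (adjusted p = 1). IGF2 did not pass for A485 (-0.13, SE 0.08, adjusted p = 0.305), dCBP (-0.14, SE 0.08, adjusted p = 0.158) or IHK-44 (-0.18, SE 0.08, adjusted p = 0.0818) in the same edgeR fit. The 95% interval for IHK-44 was -0.35 to -0.01 on the log2 scale. Without 100 nM dCBP at 6 h, the highest library, the dCBP change was -0.23 and passed (adjusted p = 0.0330). Between compounds, IGF2 was higher with JQAD than with dCBP (log2 difference 0.23, SE 0.08, edgeR adjusted p = 0.0279) and than with IHK-44 (0.27, SE 0.08, adjusted p = 0.0141). These calls were lost in 4 and 3 of the 8 fits without 1 library (adjusted p 0.0702 to 0.124 and 0.0504 to 0.0675), and with limma on log2(CPM + 1). IGF2 overlaps INS-IGF2, MIR483 and IGF2-AS on chromosome 11, and reads of the overlap cannot be told apart here, since the strand setting of the counting is not given in the sources used here.

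The scale matters for all genes, IGF2 included. On TPM, which the authors scaled over coding and other genes together, coding genes held 39.3% to 44.5% of the total in controls, 43.0% to 53.9% with A485, 27.9% to 35.4% with dCBP and 31.2% to 34.6% with IHK-44. With limma on log2(TPM + 1) the median of all tested genes was -0.28 for IHK-44, -0.26 for dCBP and 0.26 for A485. On that scale IGF2 was lower with dCBP (-0.53, limma adjusted p = 0.000163) and IHK-44 (-0.56, limma adjusted p = 9.0e-05), IGFBP2 likewise, and the rise of IRS2 was no longer called. Changes are therefore stated relative to the coding genes.

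IGF1R, the receptor kinase that carries the IGF signal, was lower at 6 h with dCBP and IHK-44. Its level was 218 and 228 CPM with DMSO at 2 h and 6 h, and 257 and 249 CPM with NT. With dCBP it was 239.9 and 245 CPM at 2 h and 157 and 153 CPM at 6 h (1 uM, then 100 nM). With IHK-44 it was 221 and 219 CPM at 2 h and 139.9 and 137 CPM at 6 h. Both doses of either compound thus lay below every control at 6 h and within the control range at 2 h. With A485 the values were 252 and 236 CPM at 2 h and 177 and 238 CPM at 6 h, so the 1 uM library at 6 h was the low one. With JQAD they were 239 and 239 CPM at 2 h and 228 and 259 CPM at 6 h. Over both times, IGF1R fell by 0.56 on the log2 scale with IHK-44 (SE 0.15, edgeR adjusted p = 0.00921) and by 0.40 with dCBP (SE 0.15, adjusted p = 0.0421). The dCBP call was lost without DMSO at 6 h, NT at 2 h, NT at 6 h or either dCBP library of 6 h (adjusted p 0.0524 to 0.151), with DMSO alone (0.220) or NT alone (0.0698) as the control, and with limma on log2(CPM + 1) (0.0765). The IHK-44 call was lost with DMSO alone (0.0852) and remained in each fit without 1 library. IGF1R overlaps lncRNA genes, including IRAIN, with the same limit on reads as for IGF2.

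IGF2R, the receptor that clears IGF2, changed little. Controls were at 696 to 838 CPM, A485 at 812 to 879.8, dCBP at 747 to 845, IHK-44 at 666 to 726 and JQAD at 697 to 886 CPM. It fell by 0.24 with IHK-44 (SE 0.08, edgeR adjusted p = 0.0207), and 5 of the 8 left-out libraries ended that call: DMSO at 6 h, NT at 2 h, NT at 6 h and 1 uM IHK-44 at either time (adjusted p 0.0551 to 0.0675). DMSO alone as the control (0.181) and limma on log2(CPM + 1) (0.153) also ended it. IGF2R overlaps AIRN, a lncRNA gene, and other annotated genes, with the same limit on reads as for IGF2. INSR was listed at 0 in the 4 controls and at 0 to 6 counts in treated libraries, with the 6 in 1 uM IHK-44 at 6 h. A count of 0 allows up to 3 counts, or 0.179 to 0.223 CPM, and INSR was not tested. The gene-level files do not show whether these low counts reflect little INSR RNA or the way reads were assigned to the gene. The treated libraries summed to 2 counts with A485, 7 with dCBP, 9 with IHK-44 and 4 with JQAD.

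IRS1, the main adaptor here, was the member with the largest change. DMSO was at 733 CPM (2 h) and 599.8 CPM (6 h), and NT at 708 and 602 CPM, so that the controls of a time differed by less than the times did. With IHK-44 the libraries were at 324 (1 uM) and 347 CPM (100 nM) at 2 h, and at 16.96 and 47.4 CPM at 6 h. With dCBP they were at 291 and 341 CPM at 2 h, and at 32.3 and 44.4 CPM at 6 h. All 8 of these libraries lay below all controls, at both doses and both times. At 6 h this was 2.83% (1 uM) and 7.90% (100 nM) of the DMSO library with IHK-44 and 5.38% and 7.40% with dCBP, against 39.7% to 47.3% at 2 h. A485 gave 298 and 564 CPM at 2 h and 126 and 448 CPM at 6 h (1 uM, then 100 nM), again all below the controls. JQAD gave 752 and 756 CPM at 2 h and 598 and 656 CPM at 6 h, which overlapped the controls.

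Over both times and doses, IRS1 fell by 2.56 on the log2 scale with dCBP (SE 0.65, 95% interval -3.93 to -1.20, edgeR adjusted p = 0.00568) and by 2.56 with IHK-44 (SE 0.66, interval -3.93 to -1.19, adjusted p = 0.00701). For A485 the fitted change was -1.01 (SE 0.60, interval -2.27 to 0.25, edgeR adjusted p = 0.279), and for JQAD it was 0.07 (SE 0.59, interval -1.18 to 1.31, adjusted p = 1). Because the spread is shared, the further fall of IRS1 by 6 h with dCBP and IHK-44 also enters the intervals for A485 and JQAD. The calls for dCBP and IHK-44 remained in each of the 8 fits that left out 1 library.

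IRS2, the second adaptor, was a low gene that rested on 33 to 132 counts in a library. Its level was 4.50 and 3.04 CPM with DMSO at 2 h and 6 h, and 4.43 and 2.12 CPM with NT. With dCBP it was 7.47 and 5.89 CPM at 2 h and 7.30 and 8.0 CPM at 6 h (1 uM, then 100 nM). With IHK-44 it was 9.21 and 6.85 CPM at 2 h and 7.94 and 5.54 CPM at 6 h. All of these lay above all controls. A485 gave 8.08 and 6.90 CPM at 2 h and 4.86 and 4.23 CPM at 6 h, and JQAD 4.43 and 3.91 CPM at 2 h and 4.26 and 3.77 CPM at 6 h. IRS2 rose by 0.95 on the log2 scale with dCBP (SE 0.20, edgeR adjusted p = 0.00164), by 0.97 with IHK-44 (SE 0.19, adjusted p = 0.00168) and by 0.70 with A485 (SE 0.20, adjusted p = 0.0388). The A485 call was lost without DMSO at 6 h, NT at 6 h, 1 uM A485 at either time or 100 nM A485 at 2 h (adjusted p 0.0658 to 0.146), and with DMSO alone or NT alone as the control (0.214 and 0.138).

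Set side by side on FPKM, the 2 adaptors came close to each other only where IRS1 was lowest. IRS1 stood at 59.0 to 72.6 FPKM in controls and IRS2 at 0.25 to 0.54 FPKM, a ratio of 132 to 236. With IHK-44 the ratio was 29.2 and 42.1 at 2 h and 1.77 (1 uM) and 7.16 (100 nM) at 6 h. With dCBP it was 32.4 and 48.1 at 2 h and 3.69 and 4.59 at 6 h. A485 gave 21.5 to 88.6 and JQAD 117 to 159, and the JQAD range overlapped that of the controls. Even at 1 uM IHK-44 and 6 h, IRS1 (1.61 FPKM) remained above IRS2 (0.91 FPKM). IRS4, a further adaptor of the family, was at 0 to 0.01 FPKM in all libraries.

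**Figure D3:**
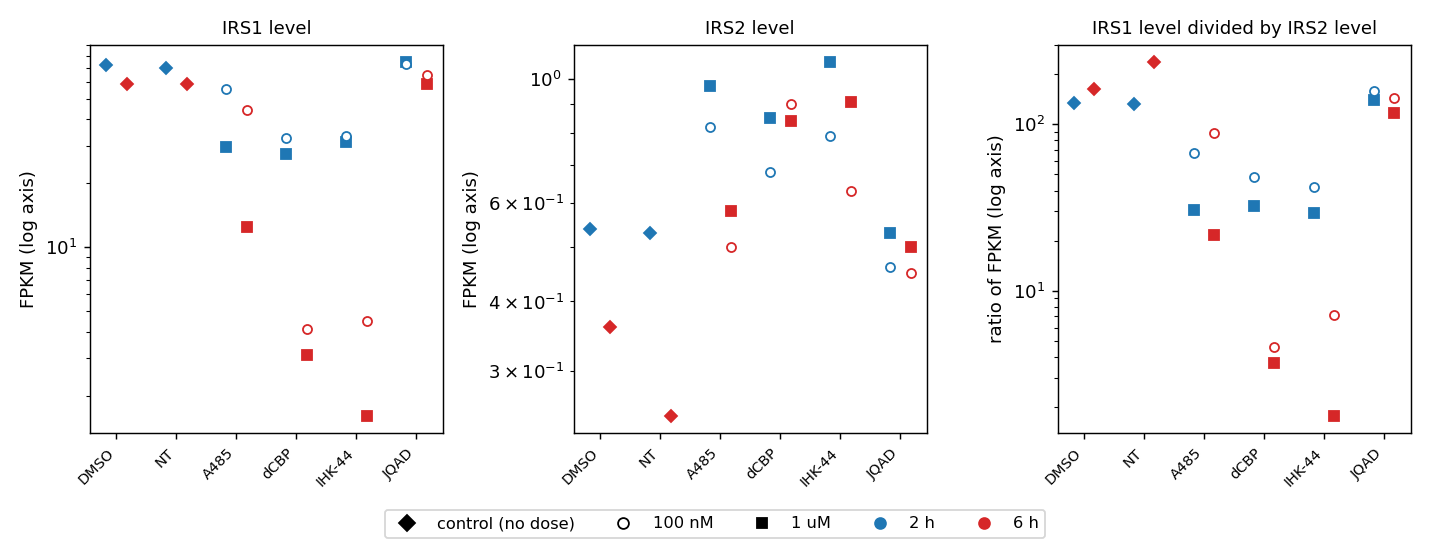
IRS1 and IRS2 in FPKM and the ratio of IRS1 to IRS2, on log axes, in each library, by compound (x axis), with colours for time and symbols for dose. Each point is 1 library; the ratio lies between 132 and 236 in controls and between 1.77 and 7.16 in the 4 libraries of dCBP and IHK-44 at 6 h.

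Of the binding proteins, IGFBP3, the main IGF carrier of blood, was at 141 and 133 CPM with DMSO at 2 h and 6 h and at 133 and 131 CPM with NT. With dCBP it was at 114 and 99.0 CPM at 2 h and 61.5 and 71.6 CPM at 6 h (1 uM, then 100 nM). With IHK-44 it was at 109 and 119 CPM at 2 h and 66.2 and 90.1 CPM at 6 h, and all libraries of both compounds lay below all controls. A485 gave 102 and 122 CPM at 2 h and 85.7 and 103 CPM at 6 h, also below all controls, and JQAD 138 and 136 CPM at 2 h and 124 and 126 CPM at 6 h. IGFBP3 fell by 0.77 with dCBP (SE 0.14, edgeR adjusted p = 0.000859) and by 0.62 with IHK-44 (SE 0.14, adjusted p = 0.00376). For A485 the change of -0.45 (SE 0.14) had an edgeR adjusted p of 0.0598. It passed without NT at 2 h (adjusted p = 0.0404), without 100 nM A485 at 6 h (0.0345) and with DESeq2 (0.0243).

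IGFBP5, a binding protein made by differentiating muscle cells, was at 13.9 and 15.0 CPM with DMSO and 17.7 and 15.6 CPM with NT (2 h, then 6 h). By 6 h it stood at 5.42 and 7.50 CPM with A485, 6.86 and 6.30 CPM with dCBP and 6.92 and 6.13 CPM with IHK-44 (1 uM, then 100 nM). These 6 libraries were at 36.2% to 50.2% of DMSO, while JQAD at 6 h gave 16.2 and 13.8 CPM. At 2 h the values were 12.0 and 15.0 CPM with A485, 10.3 and 10.0 with dCBP, 12.9 and 13.8 with IHK-44 and 15.8 and 17.6 with JQAD. Over both times, IGFBP5 fell by 1.05 with dCBP (SE 0.21, edgeR adjusted p = 0.00129), by 0.84 with IHK-44 (SE 0.20, adjusted p = 0.00522) and by 0.78 with A485 (SE 0.20, adjusted p = 0.0303). The A485 call was lost without DMSO at 6 h, NT at 6 h or 1 uM A485 at either time (adjusted p 0.0818 to 0.140), and with DMSO alone or NT alone (0.168 and 0.116). With DMSO alone as the control the IHK-44 call was also lost (adjusted p = 0.0516). IGFBP5 overlaps 2 lncRNA genes, so its reads carry the same limit as those of IGF2.

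IGFBP2 and IGFBP4 did not pass the test with any compound. IGFBP2, abundant at 193 to 215 FPKM in controls, ran from 217 to 244 CPM in controls, 176 to 246 CPM with A485, 200.3 to 269 CPM with dCBP, 211 to 238 CPM with IHK-44 and 208 to 259 CPM with JQAD. The A485 change was -0.22 (SE 0.10, interval -0.44 to 0.00, edgeR adjusted p = 0.181). IGFBP4 was at 2.64 to 2.98 CPM in controls and 2.52 to 4.89 CPM over all libraries, which is 34 to 69 counts. The 95% intervals of its change ran from -0.48 to 0.43 for IHK-44 and from -0.08 to 0.82 for JQAD. A change within them could not be told from none with these libraries.

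**Figure D4:**
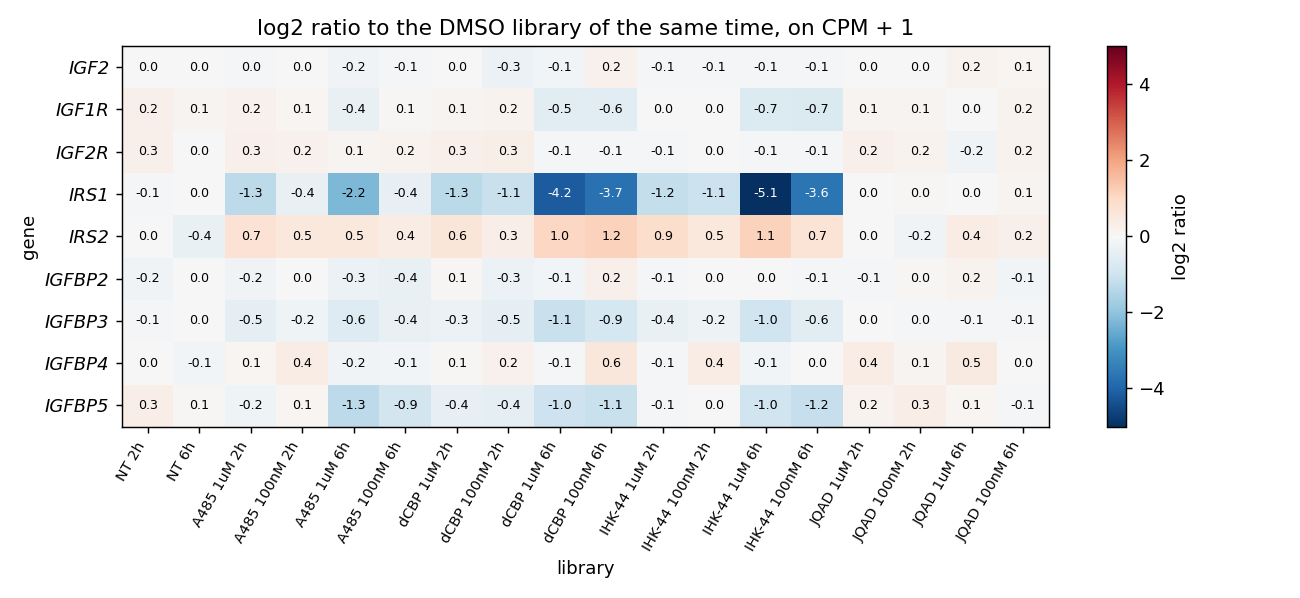
log2 ratio of each library (x axis) to DMSO at that time for 9 members (y axis), on CPM + 1, with blue for lower and red for higher. IRS1 reads -1.1 to -1.3 at 2 h and -3.6 to -5.1 at 6 h with dCBP and IHK-44, and the NT columns on the left show the spread between controls.

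The calls of the members are set here beside the shares over all genes. The members were chosen with earlier results of these data known, so an excess of calls is not a result about the family. With dCBP, 4 of the 9 tested members fell (IRS1, IGFBP3, IGFBP5, IGF1R) and IRS2 rose, where 19.6% of 13001 genes fell and 21.5% rose at an edgeR adjusted p under 0.05. With IHK-44, 5 fell (the former 4 and IGF2R) and IRS2 rose, against 18.3% and 17.1% of all genes. With A485, IGFBP5 fell and IRS2 rose, against 2.84% and 3.86%. With JQAD, 0 members and 0.0% of genes passed in either direction in edgeR; at an unadjusted p under 0.05 these were 0 members and 131 genes, and DESeq2 and limma also called 0. The median log2 change of the 9 members was 0.07 with JQAD, -0.15 with A485, -0.24 with IHK-44 and -0.14 with dCBP, where that of all tested genes was -0.00, 0.01, 0.03 and 0.05. These 4 comparisons share the control libraries. NT against DMSO, with 2 libraries each, called 0 members and 0 genes in edgeR, DESeq2 and limma (104 genes and 0 members at an unadjusted p under 0.05 in edgeR). The spread in this test also held differences between doses and times of the treated libraries. The 0 calls therefore do not measure how alike the controls were. For IRS1 the interval was -1.85 to 1.81, while NT lay at -0.05 (2 h) and 0.004 (6 h) from DMSO on log2(CPM + 1).

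Libraries that did not overlap the 4 controls give a second view without a model. IRS1, IGFBP3 and IGFBP5 were lower in this sense with dCBP (11.1% of 12174 genes) and with IHK-44 (11.5%), and IRS2 was higher (20.1% and 23.9%). For IGFBP5 with IHK-44 the margin was narrow, at 13.83 CPM (100 nM, 2 h) against 13.92 CPM (DMSO, 2 h). With A485, IRS1 and IGFBP3 were lower (7.45% of genes). In single libraries at 6 h, the members at least 2-fold below DMSO on CPM + 1 were IRS1, IGFBP3 and IGFBP5 with 1 uM dCBP (6.19% of genes). They were IRS1 and IGFBP5 with 100 nM dCBP (6.97%), 1 uM IHK-44 (6.78%), 100 nM IHK-44 (5.97%) and 1 uM A485 (3.87%). At 2 h the only such member was IRS1, with both doses of dCBP (1.59% at 1 uM, 1.27% at 100 nM), both of IHK-44 (1.7% and 1.37%) and 1 uM A485 (1.46%). IRS2 was at least 2-fold above DMSO at 6 h with 1 uM dCBP (5.23% of genes), 100 nM dCBP (6.42%) and 1 uM IHK-44 (5.54%), and in 0 of these libraries once ratios were centred on the median gene.

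The time course separated the members. Changes at each time, added after the data were seen, were contrasts from the compound by time model fitted to all 20 libraries. Their spread is therefore shared over all compounds and both times. At 2 h, IGFBP5 fell with dCBP by 0.70 (SE 0.18, edgeR adjusted p = 0.0341, with 2.76% of genes lower) and no other member passed with any compound. Of all genes at 2 h, 2.64% rose with dCBP, 2.6% fell and 2.28% rose with IHK-44, and 0.0462% fell with A485. IRS1 at 2 h had changes of -1.25 (SE 0.46, edgeR adjusted p = 0.117) with dCBP and -1.17 (SE 0.46, adjusted p = 0.172) with IHK-44. JQAD had an IRS1 SE of 0.45 at 2 h, since the spread is shared. The SE therefore does not measure how closely the 2 h libraries agreed. Those libraries were at 291 and 341 CPM with dCBP and 324 and 347 CPM with IHK-44 (1 uM, then 100 nM). DMSO was at 733 CPM and NT at 708 CPM. In the contrasts at 6 h from the same model, IRS1 fell by 4.12 with dCBP (SE 0.52, edgeR adjusted p = 1.98e-05). It fell by 4.38 with IHK-44 (SE 0.53, adjusted p = 1.24e-05). At 6 h IGF1R fell by 0.77 and 0.95, IGFBP3 by 1.13 and 0.91, and IGFBP5 by 1.37 and 1.39 with dCBP and IHK-44 in turn, while IRS2 rose by 1.41 and 1.22, and IGF2R fell by 0.27 with IHK-44. For A485 at 6 h, IGFBP5 fell by 1.32 (SE 0.19), IGFBP3 fell by 0.56 (SE 0.15) and IRS2 rose by 0.74 (SE 0.25). Among all genes at 6 h, 22.4% fell and 24.1% rose with dCBP, 21.6% and 21.5% with IHK-44, and 8.6% and 8.51% with A485.

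**Figure D5:**
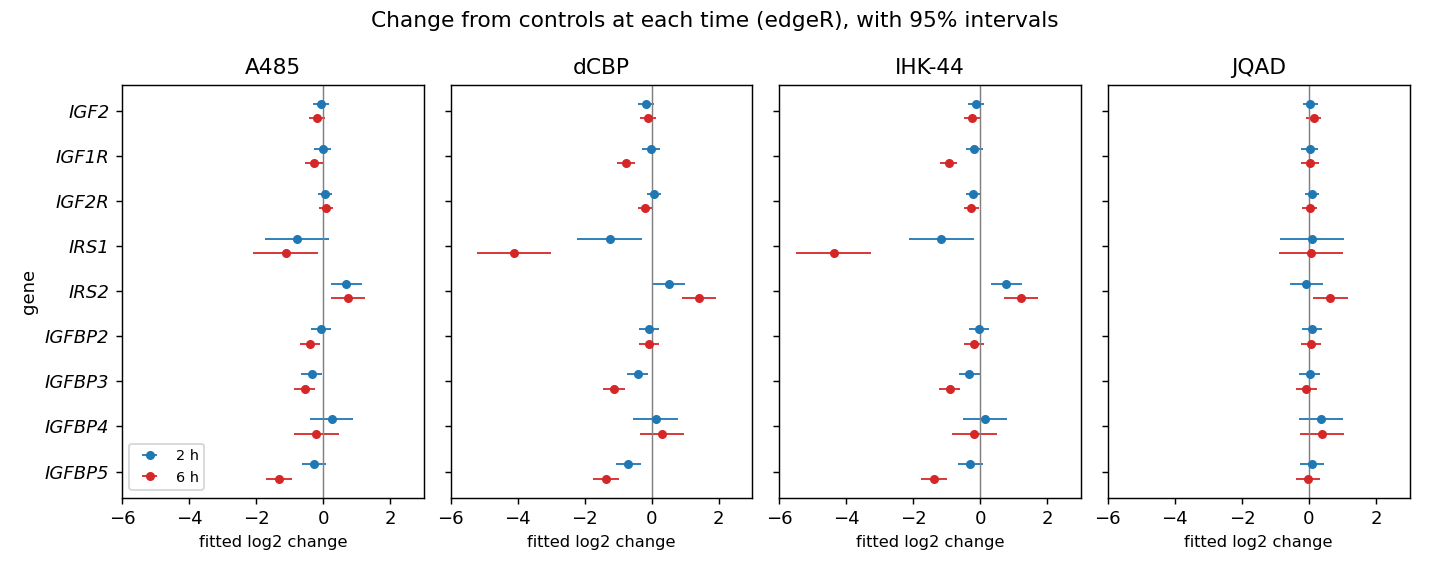
Fitted log2 change from the controls of the same time (x axis) for 9 members (y axis) and each compound, from edgeR, with 2 h in blue and 6 h in red; bars are 95% intervals. IRS1 moves from -1.25 at 2 h to -4.12 at 6 h with dCBP and from -1.17 to -4.38 with IHK-44, while the JQAD intervals of all but IRS2 at 6 h include 0.

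The difference between the times was tested as an interaction of compound and time. With dCBP, IRS1 (-2.87, SE 0.66, edgeR adjusted p = 0.0156), IGF1R (-0.74, SE 0.18, 0.0176) and IGFBP3 (-0.71, SE 0.21, 0.0438) were lower at 6 h than at 2 h relative to the controls, as were 6.16% of all genes (3.05% were higher). With IHK-44, IRS1 (-3.21, SE 0.66, edgeR adjusted p = 0.00699), IGF1R (-0.77, SE 0.18, 0.0120) and IGFBP5 (-1.09, SE 0.25, 0.0134) were, with 7.45% of all genes (2.56% were higher). With DMSO alone or NT alone as the control these 6 combinations of member and compound did not pass (adjusted p 0.0718 to 0.244), while their changes stayed between -0.69 and -3.27. For A485 and JQAD, 0 members passed in edgeR, DESeq2 or limma (1 and 0 at an unadjusted p under 0.05 in edgeR). Of all genes, 0.00769% were lower for A485. The A485 member was IGFBP5 (-1.04, SE 0.25, edgeR adjusted p = 0.335), which passed, with IGF1R, without 100 nM A485 at 6 h (adjusted p = 0.00449 and 0.0233).

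Dose was compared within a compound, 1 uM against 100 nM at the same time, over 2 pairs each. For A485, IRS1 was lower at 1 uM by a log2 difference of -1.44 (SE 0.27, 95% interval -2.04 to -0.84, edgeR adjusted p = 0.0382), where 0.83% of 12895 genes were lower and 0.0775% higher. The call was lost without either A485 library of 6 h, where the difference was -0.97 and -0.96. For dCBP the IRS1 difference was -0.36 (SE 0.28, interval -0.96 to 0.25), for IHK-44 -0.76 (SE 0.28, interval -1.38 to -0.14) and for JQAD -0.06 (SE 0.26, interval -0.64 to 0.52), none of which passed (edgeR adjusted p = 0.999 to 1). The tests for dCBP, IHK-44 and JQAD called 0 members in edgeR, DESeq2 and limma, and 0.109% of genes were lower for IHK-44. At an unadjusted p under 0.05 in edgeR these were 0, 3 (IRS1, IRS2 and IGFBP3) and 0.

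Of the 6 pairs of compounds at matched doses and times, those of JQAD with dCBP and with IHK-44 had the most members called, 6 and 7. Each adjusted p was taken over all genes of 1 pair and not over the pairs. Relative to dCBP, JQAD had higher IRS1 (2.63, SE 0.65, edgeR adjusted p = 0.00576), IGFBP5 (1.08), IGFBP3 (0.74), IGF1R (0.42) and IGF2 (0.23) and lower IRS2 (-0.70), where 18.0% of genes were higher and 20.1% lower. Relative to IHK-44, JQAD had higher IRS1 (2.63, SE 0.66, adjusted p = 0.00647), IGFBP5 (0.86), IGFBP3 (0.59), IGF1R (0.59), IGF2R (0.30) and IGF2 (0.27) and lower IRS2 (-0.72), against 17.9% and 17.1% of genes. Of these, IGF2 and IGF1R against dCBP and IGF2 against IHK-44 were lost without 1 or other of the libraries at 6 h or, for IGF2 against dCBP, without 100 nM dCBP at 2 h (adjusted p 0.0504 to 0.124). With limma on log2(CPM + 1), IGF2 and IGF1R against dCBP and IGF2 and IGF2R against IHK-44 did not pass. Relative to A485, JQAD had higher IGFBP5 (0.81, SE 0.20, edgeR adjusted p = 0.0267; 2.58% of genes were higher and 4.25% lower). This call was lost without 1 uM A485 at either time or without either JQAD library of 6 h (adjusted p 0.0533 to 0.131). IGFBP2 and IGFBP3 each passed in 1 fit without 1 library (0.0365 and 0.0450), and IGFBP3 with DESeq2.

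IHK-44 and dCBP were not told apart by any member. The IRS1 difference was 0.00 (SE 0.60, interval -1.26 to 1.26), and IRS2 differed by 0.01 (interval -0.38 to 0.40). This model has no compound by time term, so the IRS1 interval contains the further fall by 6 h with both compounds. It does not measure the spread between the 2 compounds alone. At 1 uM, IRS1 with dCBP and IHK-44 was at 291 and 324 CPM at 2 h, and 32.3 and 16.96 CPM at 6 h. At 100 nM it was at 341 and 347 CPM, and 44.4 and 47.4 CPM. The 0 members called came with 0 of 13001 genes in edgeR, 1 of 9 members at an unadjusted p under 0.05 and 0 members in DESeq2 and limma. Against A485, IRS1 was at -1.55 (interval -2.87 to -0.23, edgeR adjusted p = 0.164) with dCBP and -1.55 (interval -2.88 to -0.22, adjusted p = 0.207) with IHK-44. In edgeR 0 members passed in either comparison, where 0.646% of genes were lower and 0.969% higher with dCBP, and 0.715% lower and 0.646% higher with IHK-44; at an unadjusted p under 0.05 they were 2 and 3 members. IGF2R was at -0.31 with IHK-44 against A485 (SE 0.08, edgeR adjusted p = 0.0543) and passed with DESeq2 or RLE scaling.

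Other genes of the pathway give the setting, from lists of ligands and binding partners, adaptors and receptor regulators, PI3K to FOXO genes, and IGF2 mRNA-binding proteins. Among 7 tested ligands and partners, STC1 and STC2, which encode stanniocalcins that block the IGFBP-cleaving protease PAPPA, fell with dCBP and IHK-44, and 0 rose, where 19.6% and 18.3% of all genes fell. STC1 fell by 2.32 (SE 0.39) and 2.36 (SE 0.39), from 6.15 to 10.4 CPM in controls to 0.536 to 3.04 CPM with IHK-44. STC2 fell by 1.40 and 1.34, from 418 to 451 CPM in controls to 51.1 to 292 CPM with IHK-44. STC1 also fell with A485, by 1.29 (SE 0.36, edgeR adjusted p = 0.0383). The list's median was -0.28 with A485, -0.16 with IHK-44 and -0.11 with dCBP. IGF1 was at 0.420 to 0.562 CPM in controls and up to 2.55 CPM with A485, and INS and IGFBP1 were at 0 throughout.

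All 3 IGF2 mRNA-binding proteins, which bind and stabilise IGF2 and other RNAs, fell with dCBP and with IHK-44, as did 19.6% and 18.3% of all genes. IGF2BP3 fell by 1.15 and 0.90 in turn, IGF2BP1 by 0.45 and 0.48, and IGF2BP2 by 0.25 and 0.31. IGF2BP1 was at 527 to 609 CPM in controls and 368 to 505 CPM with IHK-44. The list's median was -0.45 with dCBP and -0.48 with IHK-44, and with A485 0 of 3 passed (median -0.17).

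Among 10 tested adaptors and receptor regulators, 2 fell and 2 rose with dCBP, and 3 fell and 1 rose with IHK-44, with medians of -0.14 and -0.09. Of all genes, 19.6% fell and 21.5% rose with dCBP, and 18.3% fell and 17.1% rose with IHK-44, so the dCBP counts are near these shares. SOCS3, an inhibitor of cytokine and insulin receptor signalling, fell by 0.97 with dCBP, by 1.53 with IHK-44 and by 0.75 with A485. SHC1, an adaptor that links receptors to RAS, fell by 0.43 and 0.50 with dCBP and IHK-44, GRB10, which binds IGF1R and dampens it, fell by 0.43 with IHK-44, and SH2B1, an adaptor of receptor kinases, rose by 0.44 with dCBP. With A485, SOCS1, a relative of SOCS3, also fell, by 1.20 (SE 0.28).

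Of 20 genes from PI3K to FOXO, 3 fell and 3 rose with dCBP, 3 fell and 2 rose with IHK-44 and 1 fell with A485, at medians of -0.03, -0.01 and 0.03, close to those of all genes. The shares of all genes that fell and rose were 19.6% and 21.5% with dCBP, 18.3% and 17.1% with IHK-44, and 2.84% and 3.86% with A485. Among the genes that fell were FOXO1 and FOXO3, transcription factors that AKT restrains. FOXO1 fell by 1.85 with dCBP and 1.51 with IHK-44, but part of this gene is fused to PAX3 in this line, and the counts do not separate the fusion from the intact gene. FOXO3 fell by 0.57 and 0.65, and by 0.44 with A485. Of 12 tested coding genes around IGF2 on chromosome 11, LSP1 fell with dCBP (-0.62) and IHK-44 (-0.67), TSSC4 rose with dCBP (0.41), and 0 passed with A485. With JQAD, 0 genes of any of these lists passed in edgeR, as for all genes.

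Genes with the most similar pattern were sought by Pearson's r of log2(CPM + 1) over the 20 libraries, among genes with a mean of at least 1 CPM. The libraries share treatments and controls, so r is a description. For IRS1 they were RHOBTB1 (r = 0.994), RUNX1 (0.992) and TRAM2 (0.992). RUNX1, a transcription factor, was at 217 CPM with DMSO and 28.0 CPM with 1 uM IHK-44 at 6 h. For IGF1R they were ATXN1 (0.978), GLI3 (0.972) and ZFHX3 (0.972), for IGFBP5 CYB5R1 (0.968), EDN3 (0.959) and PLEKHG1 (0.956), and for IRS2 NRF1 (0.917), ZNF212 (0.916) and FBXL12 (0.909). For IGFBP3 they were RAB32 (0.980), IGFBPL1 (0.9746) and MYOG (0.972), the last a muscle differentiation factor at 300.1 CPM with DMSO and 29.8 CPM with 1 uM IHK-44 at 6 h. IGF2 was closest to TLE5 (0.910), IGF2R to SPEN (0.915), IGFBP2 to FLOT1 (0.922) and IGFBP4 to SUN2 (0.802).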

How the data were processed

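The values come from 20 RNA-seq libraries of RH4 cells. Another 12 samples of the series, 1 of ChRO-seq and 11 of ChIP-seq, were not analysed here. The authors deposited, per the file headers, expected counts (estimated read counts per gene), TPM, FPKM and library-scaled counts (CPM) for coding genes. The submitters' processing notes name STAR 2.5.3a, RSEM 1.3.3 and hg38 among tools and builds, without roles. The strand setting of the counting is not given in the sources used here.

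After rounding, the expected counts went into edgeR 4.0.16 (R 4.3.3), with the quasi-likelihood test, TMM scaling, filterByExpr and Benjamini-Hochberg adjustment over all genes tested, at a threshold of 0.05. A model with a level for each compound, DMSO and NT pooled as the control, and time tested 13001 genes with 14 residual degrees of freedom. Time dependence and the changes at 2 h and at 6 h came from compound by time, fitted to all 20 libraries (10 residual degrees of freedom). Dose came from 16 treated libraries, blocked by combination of compound and time (12895 genes, and 4 degrees of freedom left). Nothing in the labels shows that libraries came from separate cultures, so p-values measure the spread between these libraries, part of which may be technical. In the model against controls, which has no dose or compound by time term, that spread also holds differences between doses and times. Ratios of single libraries used log2(CPM + 1) over 12174 genes with a mean of at least 1 CPM, and understate changes of low genes.

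Alternatives were DESeq2 1.42.0, limma 3.58.1 on log2(CPM + 1) and log2(TPM + 1), RLE scaling, no filter, DMSO or NT alone as the control, each library left out, a pseudocount of 0.1 and centring on the median gene. The 10 members and the pathway lists were chosen with earlier results of these data known. The contrasts at a single time were added after the data were seen. Named genes were all members, up to 3 genes a list and compound with the largest change past the threshold, and the 3 nearest patterns a member, of which 1 is given for IGF2, IGF2R, IGFBP2 and IGFBP4. 1 gene of the lists that met this rule is not reported here.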

Additional observations from a re-analysis of the deposited data

Results flagged for a closer look

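The response of 6 member and compound combinations differed between 2 h and 6 h by the interaction test in edgeR. With dCBP, the log2 change from controls was further down at 6 h by a difference of -2.87 for IRS1 (adjusted p = 0.0156), -0.74 for IGF1R (0.0176) and -0.71 for IGFBP3 (0.0438). With IHK-44, the difference was -3.21 for IRS1 (edgeR adjusted p = 0.00699), -0.77 for IGF1R (0.0120) and -1.09 for IGFBP5 (0.0134).

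The IRS1 call with IHK-44 remained in all 8 fits without 1 library. The dCBP call for IRS1 was lost without DMSO at 2 h, NT at 2 h or 100 nM dCBP at 2 h (adjusted p 0.0568 to 0.0578), and that for IGF1R without DMSO at 2 h, NT at 6 h or 100 nM dCBP at 2 h (0.0599 to 0.0757). The dCBP call for IGFBP3 remained in 1 of 8 such fits, the one without 100 nM dCBP at 6 h, and its adjusted p was 0.0699 to 0.129 in the other 7. With IHK-44, IGF1R was lost without NT at 6 h (0.0514) and IGFBP5 without DMSO at 2 h or 100 nM IHK-44 at 2 h (0.0531 to 0.0557), while IGFBP3 passed without 100 nM IHK-44 at 6 h (0.0174).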

How the results depend on the processing

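Replicates could not be paired by number, since each condition has 1 library and the labels give no replicate numbers, while the dose comparison was itself blocked by compound and time. The number of members called against controls was 6 for IHK-44, 5 for dCBP, 2 for A485 and 0 for JQAD. With DMSO alone as the control it was 0 for A485 and 3 for IHK-44, and with NT alone it was 0 for A485. In the contrasts at 2 h it was 1 for dCBP and 0 for both A485 and IHK-44. Time dependence called 3 members for dCBP and 3 for IHK-44, and 0 for each with DMSO alone or NT alone. IHK-44 against A485 called 0 members, but 1 with DESeq2 and 1 with RLE scaling (IGF2R), and JQAD against A485 called 1, but 2 with DESeq2. A member (IRS2) was at least 2-fold above DMSO in 3 of the 16 treated libraries, and in 0 after centring on the median gene. The cause was not tested. Leaving out 1 library gave 0 to 3 members for A485, 4 to 5 for dCBP, 5 to 6 for IHK-44 and 0 for JQAD against controls. It gave 0 to 2 for JQAD against A485, 4 to 6 for JQAD against dCBP, 6 to 7 for JQAD against IHK-44 and 0 to 1 for the A485 dose. For time dependence it gave 2 to 4 for IHK-44, 0 to 3 for dCBP and 0 to 2 for A485. The smaller fits without 1 library have fewer residual degrees of freedom. Of 612 fitted changes of members under an alternative, 556 kept their direction and side of the threshold, 45 kept the direction and lost the call, 11 gained it, and none changed sign with a call.

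Counts over all genes moved more. With DMSO alone, 36 genes were called for A485 (871 with both controls), 3137 for dCBP (5344) and 2247 for IHK-44 (4605), and with NT alone 43, 3090 and 2496. DESeq2 called 1385 genes for A485, 687 for dCBP against A485 (210 in edgeR), 532 for IHK-44 against A485 (177) and 1371 for JQAD against A485 (888). limma on log2(TPM + 1) called 4448 genes for A485. Its split for dCBP was 5630 lower and 273 higher, and for IHK-44 5789 and 167, where edgeR gave 2552 and 2792, and 2376 and 2229. limma on log2(CPM + 1) gave 1937 and 4182, and 1796 and 3803. For the A485 dose, DESeq2 called 224 genes, limma 72 and the unfiltered fit 243 (117 in edgeR), and for IHK-44 dose DESeq2 called 30 (14). For time dependence, DMSO alone called 0 genes for dCBP and IHK-44 and NT alone 0 and 180 (1197 and 1302 with both), and A485 had 18 with DESeq2 and 17 unfiltered (1). Without 1 library, the genes called ran from 2699 to 4779 for IHK-44, 3737 to 5793 for dCBP and 95 to 1527 for A485. IGFBP4 and IRS2 rested on 34 to 69 and 33 to 132 counts in a library, and the part of depth in their spread was not tested.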
